A study of Homo sapiens and Mus musculus with 28 samples.

Results

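SCC1 cells lacking REXO4 and treated with BX-795 were compared with REXO4-knockout cells given vehicle. SCC1 is a human head and neck squamous carcinoma cell line, and REXO4 (an RNA exonuclease) is the gene knocked out. The comparison took the 3 libraries labelled SCC1_KO_2_BX_795 and the 3 labelled SCC1_R4KO_2_Vehicle, by their titles alone, which is 6 of the 28 libraries of a series that also holds mouse tumours. All 5 groups used here are SCC1 libraries in triplicate: Ctrl_Vehicle is the control line with vehicle, R4KO_1_Vehicle and R4KO_2_Vehicle are 2 REXO4 knockouts with vehicle, KO_2_H151 is a knockout given H-151, and KO_2_BX_795 is a knockout given BX-795. Both inhibitor groups therefore carry the knockout as well as the compound, and no library is control SCC1 given an inhibitor. The labels give no dose, exposure time, guide or clone, and they do not say whether replicates were separate cultures, so every p-value measures the spread between these libraries, which may be technical.

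TBK1 and its relative IKBKE (IKK epsilon) are kinases that pass signals from the DNA sensor pathway of cGAS and STING, and from RNA sensors acting through MAVS, to the transcription factor IRF3. Active IRF3 induces type I and type III interferons, which act through JAK kinases and a complex that holds STAT2 and IRF9 on genes carrying an interferon-stimulated response element. BX-795 is a small ATP-competitive inhibitor of TBK1 and IKBKE that was first described as an inhibitor of PDPK1, a kinase upstream of AKT, and it is known to bind several other kinases. H-151 is a covalent inhibitor of STING itself, so it acts 1 step above TBK1.

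Total counts were 21355791 to 27937636 per BX-795 library and 21515031 to 26619845 per H-151 library. They were 17525228 to 17673227 in R4KO_2_Vehicle, 17470214 to 17685433 in R4KO_1_Vehicle and 17727904 to 18029973 in Ctrl_Vehicle. Both inhibitor groups were thus deeper than every vehicle group. A separate preparation or sequencing of the inhibitor libraries cannot be told apart from the compound in the comparisons with vehicle. Of the squamous epithelial markers, 11 of 12 reached 1 CPM (read counts scaled by library size) in every group. Their summed level was 3850 to 3867 CPM with BX-795, 4764 to 4828 CPM in R4KO_2_Vehicle and 5702 to 5979 CPM in Ctrl_Vehicle. Fibroblast markers summed to 49.4 to 51.8 CPM with BX-795 and 42.2 to 45.6 CPM in R4KO_2_Vehicle, with 2 and 1 of 10 markers at 0 counts. Most of that sum was COL1A1, which was higher with BX-795 (means of 46.6 and 29.3 CPM), while COL3A1 (0.243 and 5.85 CPM) and LUM (0.335 and 5.76 CPM) were lower and 4 of the 10 had enough counts to be tested. Leukocyte markers summed to 1.22 to 1.59 CPM with BX-795 and 0.689 to 0.909 CPM in R4KO_2_Vehicle, with 3 and 4 of 10 at 0. The part of these marker levels in the results below was not tested. In a bulk library, fewer cells of one state and less RNA per cell cannot be told apart. On the first principal component, which held 58% of the variance, the vehicle groups stood apart from each other and from the inhibitor groups. BX-795 and H-151 libraries lay together there and separated on the second component (18.8%).

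REXO4 (chr9:133406059-133418096 in hg38) was at 75.2, 77.9 and 71.9 CPM in the Ctrl_Vehicle libraries and at 7.05, 7.11 and 5.03 CPM in the R4KO_2_Vehicle libraries. With BX-795 it was at 19.6, 18.9 and 18.7 CPM, above every R4KO_2_Vehicle library and below every Ctrl_Vehicle library. The log2 fold change was 1.57 ± 0.096 (SE) against R4KO_2_Vehicle, with an edgeR quasi-likelihood, Benjamini-Hochberg adjusted p of 1.99e-12. The mean was 9.58 CPM in R4KO_1_Vehicle and 18.1 CPM with H-151. The reads were counted over the whole gene, which overlaps STKLD1 and ADAMTS13, so a count does not report an intact transcript.

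Some transcripts were near 0 in Ctrl_Vehicle and in one knockout but present in the other, and these set the labelled KO_2 libraries apart from R4KO_2_Vehicle. PXDN (a matrix peroxidase) averaged 8.21 CPM in R4KO_1_Vehicle and 0.143 CPM in R4KO_2_Vehicle, and it was at 12.3, 11.9 and 13.5 CPM with BX-795. SLC12A3 (a sodium chloride cotransporter) averaged 8.07 CPM in R4KO_1_Vehicle and 0.267 CPM in R4KO_2_Vehicle, and it was at 14.4, 14.4 and 16.1 CPM with BX-795. PYCARD (the inflammasome adaptor ASC) averaged 2.23, 0.302 and 1.65 CPM in the same order of groups. The lone transcript that marked R4KO_2_Vehicle, the long noncoding RNA FIRRE, averaged 3.22 CPM there, 0.308 CPM in R4KO_1_Vehicle and 0.276 CPM with BX-795. On all 4 transcripts the BX-795 libraries, and the H-151 libraries too, stood on the side of R4KO_1_Vehicle. Another rule, added after the data were seen, asked for a mean of at least 1 CPM and at least 8 times that of the other knockout and of Ctrl_Vehicle. It gave 5 marks of R4KO_1_Vehicle and 3 of R4KO_2_Vehicle without PYCARD among them, and the BX-795 mean was nearer to R4KO_1_Vehicle for 4 of the 5 and 2 of the 3. Whether the compound moved these transcripts or the cells were another knockout culture cannot be told apart from these libraries. Every list count and named gene below was therefore also computed against R4KO_1_Vehicle, an alternative chosen after seeing the data. Values for single genes against it are given beside the result where they change a call, and together after the lists where the call is the same and the fold differs by more than 1.5 times.

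**Figure D1:**
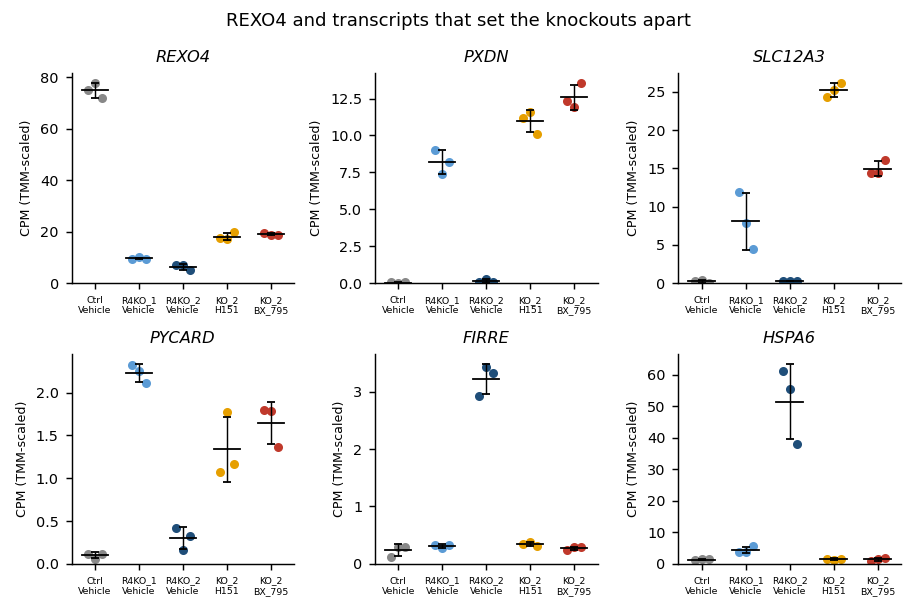
REXO4 and 5 transcripts that separate the knockouts or the BX-795 libraries, in CPM on the vertical axis, by group on the horizontal axis. Points are libraries, bars are means and error bars are SD over 3 libraries, and PXDN, SLC12A3 and PYCARD are high in R4KO_1_Vehicle and in both inhibitor groups and low in R4KO_2_Vehicle, while FIRRE and HSPA6 are high in R4KO_2_Vehicle alone.

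Against R4KO_2_Vehicle, 5227 of 14348 tested genes (36.4%) were higher with BX-795 and 5330 (37.1%) were lower, by edgeR's quasi-likelihood test at a Benjamini-Hochberg adjusted p below 0.05. Over all tested genes, called or not, the median absolute log2 fold change was 0.389. Changes of at least 2-fold were called for 856 genes upward (5.97%) and 1326 genes downward (9.24%). The median log2 fold change of all tested genes was -0.01. The scaling of the libraries places this centre near 0, so the lists below are read relative to it. Against R4KO_1_Vehicle, 4849 genes (33.8%) were higher and 5049 (35.2%) lower, with 1099 (7.66%) lower by at least 2-fold. Both comparisons use the same 3 BX-795 libraries. The 3 BX-795 libraries lay wholly above or wholly below the 3 R4KO_2_Vehicle libraries for 76.9% of tested genes, so a lack of overlap is common here. All CPM values are scaled by TMM factors, log2 fold changes are given with their SE, and every group has 3 libraries.

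**Figure D2:**
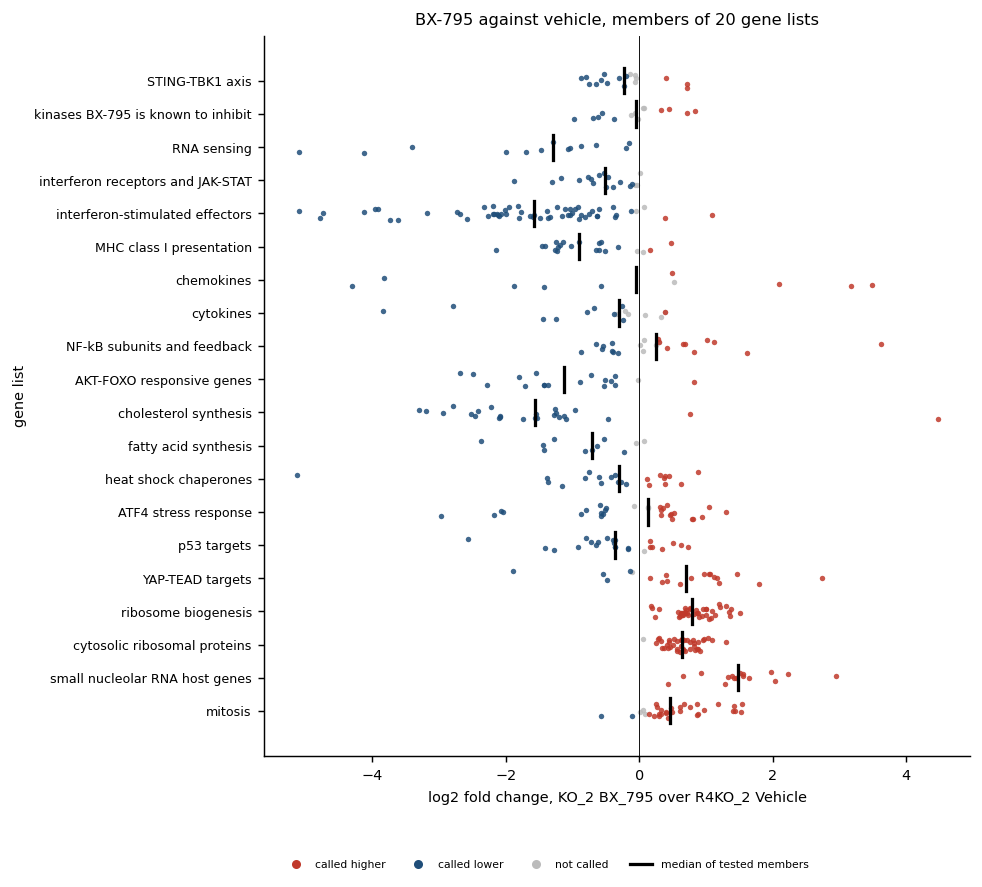
Log2 fold change of BX-795 over R4KO_2_Vehicle on the horizontal axis for each tested member of 20 gene lists, one row per list. Each point is a gene, red if higher, blue if lower and grey if not called at an adjusted p of 0.05, and the black bar is the median, which runs from -1.58 for interferon-stimulated effectors and -1.56 for cholesterol synthesis to 1.48 for small nucleolar RNA host genes.

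Of the main target kinases of BX-795, IKBKE mRNA rose and TBK1 mRNA did not pass the test. TBK1 was at 57.6, 61.96 and 59.7 CPM in R4KO_2_Vehicle and 58.6, 55.1 and 56.8 CPM with BX-795, a log2 fold change of -0.07 ± 0.06 (edgeR adjusted p = 0.256). The libraries of both groups overlapped. IKBKE was at 15.6, 15.5 and 15.7 CPM in R4KO_2_Vehicle and 26.7, 24.9 and 25.2 CPM with BX-795, a log2 fold change of 0.72 ± 0.08 (edgeR adjusted p = 2.83e-08). Every BX-795 library was above every vehicle library. TRAF3 is a ubiquitin ligase that brings TBK1 to MAVS. It went from 52.4, 57.95 and 51.8 to 89.8, 88.2 and 87.7 CPM (0.71 ± 0.07, edgeR adjusted p = 2.14e-09), again with no overlap. AZI2, a scaffold of TBK1, rose by 0.401 on the log2 scale.

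The rest of the STING and TBK1 pathway was mostly lower. Of 17 tested members, 3 rose and 10 fell, at a median log2 change of -0.23, and against R4KO_1_Vehicle 4 were higher and 9 lower. The DNA sensor CGAS fell by 0.48 on the log2 scale and STING1 by 0.58. CGAS was not called against R4KO_1_Vehicle (-0.14, edgeR adjusted p = 0.0632). MAVS, the adaptor of RNA sensors on mitochondria, fell by 0.65 and TRIM25, which activates RIGI, fell by 0.87. The selective autophagy receptors OPTN and SQSTM1, which bind TBK1 or are phosphorylated by it, fell by 0.797 and 0.75, and TAX1BP1 and CALCOCO2 fell by 0.31 and 0.197. The scaffold TANK fell by 0.23 and IRF7 by 0.52. IRF3, the scaffold TBKBP1 and the TLR3 adaptor TICAM1 were not called, at -0.05, -0.06 and -0.13. TICAM1 was higher with BX-795 when R4KO_1_Vehicle was the comparator (0.42).

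Among 14 tested kinases on which BX-795 is known to act, 4 rose and 5 fell, a share of each direction near that of all genes. NUAK1, a kinase related to AMPK, rose by 0.84, the mitotic kinase AURKB by 0.33 and MARK4, which phosphorylates microtubule-associated proteins, by 0.44 on the log2 scale. MARK4 was not called against R4KO_1_Vehicle (0.07). MAPK15 fell by 0.98, MAP3K9 by 0.696, the autophagy kinase ULK1 by 0.62 and MARK1 by 0.55. PDPK1 was at 56.4, 54.7 and 51.8 CPM in R4KO_2_Vehicle and 52.8, 53.5 and 54.4 CPM with BX-795 (-0.02, edgeR adjusted p = 0.751).

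All 13 tested RNA sensing genes fell, 9 of them by at least 2-fold, at a median log2 change of -1.29. Against R4KO_1_Vehicle all 13 were lower too, with a median of -1.20. OASL, an OAS-family protein that binds RIGI, was at 227.1, 275.9 and 262.3 CPM in R4KO_2_Vehicle and 7.75, 6.74 and 7.803 CPM with BX-795, while Ctrl_Vehicle averaged 36.5 CPM. The BX-795 libraries were thus below the control line as well as below the knockout. The log2 fold change against R4KO_2_Vehicle was -5.09 ± 0.15 (edgeR adjusted p = 1.11e-17). RIGI, the sensor of RNA with a triphosphate end, was at 119.2, 135.5 and 140.2 CPM in R4KO_2_Vehicle and 12.8, 12.4 and 12.04 CPM with BX-795, with a mean of 27.1 CPM in Ctrl_Vehicle. Its log2 fold change was -3.41 ± 0.15 (edgeR adjusted p = 7.22e-15). OAS2, which makes short oligoadenylates on double-stranded RNA, was at 17.9, 24.5 and 22.7 CPM and then 1.43, 1.11 and 1.18 CPM (-4.12 ± 0.22, edgeR adjusted p = 1.79e-13).

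The other sensors fell less. IFIH1 (MDA5, a sensor of long double-stranded RNA) fell by 1.7, DHX58 (LGP2, its regulator) by 1.47 and the endosomal receptor TLR3 by 1.04 on the log2 scale. OAS1 fell by 1.999 and OAS3 by 1.06. The RNA-activated kinase EIF2AK2 (PKR) and the editing enzyme ADAR fell by 0.201 and 0.16. ZBP1 had too few counts to be tested. MAVS and TRIM25 belong to this list and to the STING list, and OAS1, OAS2, OAS3 and OASL also belong to the effectors described next.

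Most interferon genes had few or no counts. IFNL1 (a type III interferon) had 29 counts over the 3 R4KO_2_Vehicle libraries and 0 over the 3 BX-795 libraries, so it was at least 12.5-fold lower, taking 3 counts over the group as the floor. It had 28 counts in R4KO_1_Vehicle and 0 in Ctrl_Vehicle. IFNB1 had 7 counts in R4KO_2_Vehicle and 2 with BX-795. IFNE, an epithelial type I interferon, was tested and not called (-0.3, edgeR adjusted p = 0.0727), and it was called lower against R4KO_1_Vehicle (-0.48) and when some single libraries were left out. IFNA1 had 4 counts in R4KO_2_Vehicle and 16 with BX-795 and was not called (edgeR adjusted p = 0.0719), although it was without R4KO_2_Vehicle replicate 3.

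Of 18 tested interferon receptor and JAK-STAT genes, 15 fell and none rose, at a median log2 change of -0.51. Against R4KO_1_Vehicle 14 were lower and none higher. IRF9, the DNA-binding partner of STAT2, went from 3.45, 5.08 and 4.02 CPM to 1.18, 0.914 and 1.25 CPM (-1.88 ± 0.21, edgeR adjusted p = 5.59e-08). STAT2 went from 71.7, 71.8 and 76.8 CPM to 34.5, 30.6 and 32.6 CPM (-1.17 ± 0.06, edgeR adjusted p = 5.05e-14). In both genes the groups did not overlap. IRF1, an interferon-induced activator, fell by 1.31 on the log2 scale. JAK1, JAK2 and TYK2, the receptor-bound kinases, fell by 0.52, 0.77 and 0.599. The feedback inhibitors USP18, SOCS3 and SOCS1 fell by 0.899, 0.7 and 0.47, and SOCS1 was not called against R4KO_1_Vehicle (-0.004). The type III receptor chain IFNLR1 fell by 0.72 and its partner IL10RB by 0.5. The type I receptor chains IFNAR1 and IFNAR2 and the chain IFNGR2 were not called, at 0.01, -0.03 and -0.07.

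Interferon-stimulated effectors, the antiviral genes at the end of the pathway, fell almost throughout. Of 59 tested members, 55 fell and 2 rose. The fall was at least 2-fold for 41, and the list's median was -1.58 on the log2 scale. Against R4KO_1_Vehicle 56 were lower and none higher, with a median of -1.45. HERC5, the ligase that attaches ISG15 to proteins, was at 46.6, 58.6 and 58.3 CPM in R4KO_2_Vehicle and 2.12, 2.36 and 1.69 CPM with BX-795 (-4.74 ± 0.19, edgeR adjusted p = 2.81e-15). DDX60, a helicase linked to RIGI signalling, was at 115.7, 133.1 and 142.4 CPM and then 7.87, 7.65 and 9.42 CPM (-3.96 ± 0.12, edgeR adjusted p = 4.92e-17). IFIT3, which with IFIT1 and IFIT2 binds viral RNA, was at 175.1, 214.7 and 226.3 CPM and then 14.6, 16.9 and 15.02 CPM (-3.73 ± 0.16, edgeR adjusted p = 4.68e-15). Each vehicle library was far above each BX-795 library in all 3 genes.

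RSAD2 (viperin, an enzyme that makes a chain-terminating nucleotide) was at 11.2, 13.4 and 13.7 CPM in R4KO_2_Vehicle and 0.448, 0.385 and 0.515 CPM with BX-795 (-4.79 ± 0.33, edgeR adjusted p = 1.67e-11). It overlaps CMPK2, so reads of the pair may be shared. IFIT1 went from 227.9, 240.1 and 240.8 CPM to 19.5, 18.6 and 19.7 CPM (-3.61 ± 0.11, edgeR adjusted p = 1.64e-17), and IFIT2 fell by 3.91 on the log2 scale. PARP9, which pairs with the ligase DTX3L, had the lowest p of the list (edgeR adjusted p = 1.13e-18) at a fold change of -1.8 ± 0.04. ISG15, the ubiquitin-like modifier, fell by 1.95 and IFI44L by 2.69.

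The 2 members that rose were low. MX1, a dynamin-like antiviral GTPase, was at 2.71, 3.101 and 2.78 CPM in R4KO_2_Vehicle and 3.995, 3.27 and 3.86 CPM with BX-795 (0.38, edgeR adjusted p = 0.0408). EPSTI1 was at 0.849, 0.749 and 1.12 CPM and then 1.997, 1.78 and 1.99 CPM (1.08, edgeR adjusted p = 0.000396). Neither was called against R4KO_1_Vehicle (0.31 and 0.11), and the MX1 call was also lost under other settings. IFITM3 fell by 0.12, a call that some settings lost, and LGALS3BP and TRIM14 were not called. LGALS3BP was called lower against R4KO_1_Vehicle (-0.267).

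HERC5, DDX60 and IFIT3 are shown here by their promoters because they were among the deepest falls and each holds the interferon-stimulated response element (GAAA, any 2 bases, GAAA) more than 1 time. The sequences are from RefSeq (GRCh38.p14), run 5′ to 3′ on the gene's strand from 250 bases before the transcription start to 50 bases after it, and capitals mark every match on either strand. HERC5 lies at chr4:88456869-88457168 on the plus strand and has 3 matches, 2 of which overlap, DDX60 at chr4:168318703-168319002 on the minus strand with 2, and IFIT3 at chr10:89327747-89328046 on the plus strand with 2.
HERC5: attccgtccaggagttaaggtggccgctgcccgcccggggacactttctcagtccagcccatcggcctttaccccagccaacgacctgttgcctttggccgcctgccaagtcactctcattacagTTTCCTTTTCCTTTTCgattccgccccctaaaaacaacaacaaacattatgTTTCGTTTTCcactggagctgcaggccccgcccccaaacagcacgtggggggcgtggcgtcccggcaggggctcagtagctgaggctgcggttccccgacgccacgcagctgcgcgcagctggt
DDX60: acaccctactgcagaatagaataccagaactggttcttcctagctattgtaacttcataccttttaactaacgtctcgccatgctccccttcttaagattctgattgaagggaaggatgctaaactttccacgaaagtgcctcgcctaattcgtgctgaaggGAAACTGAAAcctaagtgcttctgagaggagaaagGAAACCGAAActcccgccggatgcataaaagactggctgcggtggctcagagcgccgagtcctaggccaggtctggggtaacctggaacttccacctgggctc
IFIT3: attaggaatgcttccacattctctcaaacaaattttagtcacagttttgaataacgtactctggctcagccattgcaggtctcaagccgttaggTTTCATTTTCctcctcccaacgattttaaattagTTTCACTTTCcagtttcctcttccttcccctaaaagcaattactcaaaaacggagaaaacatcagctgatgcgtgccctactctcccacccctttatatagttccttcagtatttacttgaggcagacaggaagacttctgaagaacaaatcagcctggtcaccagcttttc
The element was found in 3.65% of the 27305 promoters in the table. Promoters were found for 45 of the 59 tested effectors, which is under 80%, so a share for the whole list is void. Among those 45, the 32 with the element had a median log2 fold change of -1.54 and the 13 without it a median of -1.8. A match describes letters in this window and is no evidence of binding.

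**Figure D3:**
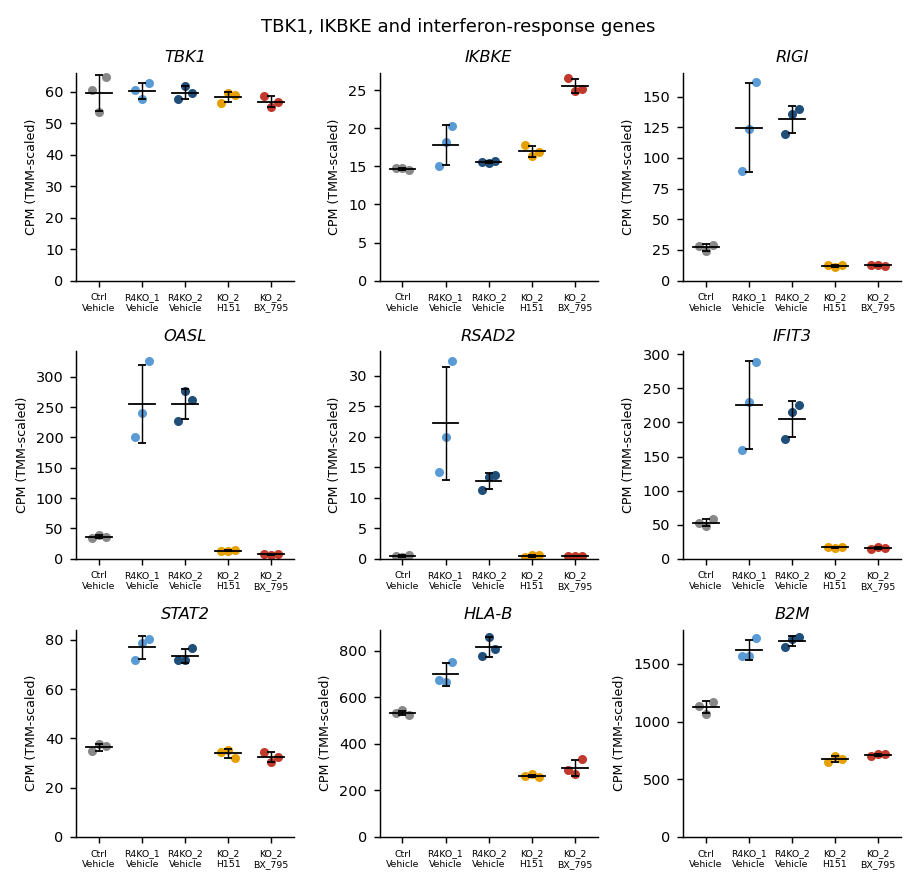
Levels of 9 genes of the TBK1 and interferon pathways in CPM on the vertical axis, by group on the horizontal axis, one panel per gene. Points are libraries, bars are means and error bars are SD over 3 libraries, and RIGI, OASL, RSAD2, IFIT3, STAT2, HLA-B and B2M are high in both vehicle-treated knockouts and low in both inhibitor groups, whereas TBK1 overlaps between R4KO_2_Vehicle and BX-795.

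MHC class I presentation fell with the effectors. Of 21 tested members, 17 fell and 2 rose, at a median log2 change of -0.90, and against R4KO_1_Vehicle the counts were 17 lower and 2 higher. B2M, the shared light chain, was at 1647, 1716 and 1731 CPM in R4KO_2_Vehicle and 698.8, 716.5 and 720.0 CPM with BX-795 (-1.25 ± 0.04, edgeR adjusted p = 1.08e-16). HLA-B was at 778.2, 859.7 and 806.8 CPM and then 288.2, 268.1 and 333.3 CPM (-1.46 ± 0.06, edgeR adjusted p = 2.45e-15). No BX-795 library reached the lowest vehicle library in either gene. HLA-F fell by 2.15 on the log2 scale, but HLA genes are near-identical and HLA-B overlaps HLA-C, so the split of reads among them is uncertain. NLRC5, the activator of class I genes, fell by 1.417, the immunoproteasome subunits PSMB9 and PSMB8 by 1.19 and 0.51, and the trimming enzymes ERAP1 and ERAP2 by 1.03 and 1.22. The risers were the general endoplasmic reticulum folding proteins CANX (0.47) and PDIA3 (0.16), and PDIA3 was not called against R4KO_1_Vehicle (-0.03). Of the 17 members with a promoter in the table, 9 (52.9%) held the interferon-stimulated response element.

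NF-kB genes did not fall as a group. NF-kB is the other main output of the sensing pathway, and its subunits are held in check by inhibitors that NF-kB itself induces. Of 23 tested members, 10 (43.5%) rose and 8 (34.8%) fell, shares near those of all genes, at a median log2 change of 0.24. Against R4KO_1_Vehicle 11 were higher and 6 lower. TNFAIP3 (A20, a feedback inhibitor that edits ubiquitin chains) was at 25.4, 31.5 and 27.3 CPM in R4KO_2_Vehicle and 82.7, 87.04 and 87.8 CPM with BX-795 (1.61 ± 0.11, edgeR adjusted p = 1.92e-11). TRAF1, an adaptor of TNF receptors, was at 7.21, 9.57 and 8.09 CPM and then 19.2, 16.9 and 17.6 CPM (1.12 ± 0.13, edgeR adjusted p = 1.26e-07). NFKB2, the precursor of the p52 subunit, was at 68.3, 84.95 and 79.03 CPM and then 121.8, 115.7 and 126.3 CPM (0.65 ± 0.11, edgeR adjusted p = 9.56e-06). BX-795 libraries were above all vehicle libraries in these 3 genes. The inhibitors NFKBIB, NFKBIE and NFKBIA rose by 1.02, 0.69 and 0.29 on the log2 scale, and TNIP1, a partner of A20, by 0.83.

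The members that fell included other subunits. RELA fell by 0.32, REL by 0.64 and NFKB1 by 0.39, the coactivator BCL3 by 0.87, the deubiquitinase CYLD by 0.56 and the caspase-8 regulator CFLAR by 0.54 on the log2 scale. NFKB1 and NFKBIZ (-0.403) were not called against R4KO_1_Vehicle. The adhesion molecule ICAM1 fell by 0.402 against R4KO_2_Vehicle and was not called against R4KO_1_Vehicle (0.39, edgeR adjusted p = 0.0667). RELB was not called (0.29, edgeR adjusted p = 0.0901), although some settings called it.

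TNFAIP3 is shown because it had the largest rise among list members called higher whose promoter in the table holds the NF-kB sequence. That sequence (GGG, any 2 bases, TTTCC) occurs 2 times in it, and it was thus part of the choice. The RefSeq window (GRCh38.p14, chr6:137867009-137867308, plus strand) has the same extent as above, and capitals mark the matches, both on the minus strand.
TNFAIP3: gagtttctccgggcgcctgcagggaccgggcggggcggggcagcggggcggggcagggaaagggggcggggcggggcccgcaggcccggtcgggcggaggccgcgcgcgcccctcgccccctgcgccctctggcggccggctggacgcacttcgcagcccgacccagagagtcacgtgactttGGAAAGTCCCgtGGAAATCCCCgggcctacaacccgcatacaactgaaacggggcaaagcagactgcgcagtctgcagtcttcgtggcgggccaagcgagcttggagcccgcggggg
Of the 20 NF-kB list members with a promoter in the table, 6 (30.0%) held this sequence, against 1.92% of all promoters.

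Chemokines changed in both directions. Of 10 tested, 4 rose and 5 fell, shares near those of all genes, with the same counts against R4KO_1_Vehicle. CXCL3, a neutrophil attractant, was at 1.01, 0.642 and 0.589 CPM in R4KO_2_Vehicle and 8.19, 8.61 and 8.54 CPM with BX-795 (3.49 ± 0.22, edgeR adjusted p = 3.92e-12). CCL20, the ligand of CCR6, was at 1.803, 2.09 and 2.302 CPM and then 18.6, 19.01 and 18.3 CPM (3.17 ± 0.13, edgeR adjusted p = 3.04e-15), with 0.0592 CPM in Ctrl_Vehicle. CXCL2 was at 4.08, 5.19 and 5.25 CPM and then 20.2, 20.3 and 21.6 CPM (2.097 ± 0.13, edgeR adjusted p = 3.76e-12). CXCL8 rose by 0.49 on the log2 scale, a call lost under some settings. The groups did not overlap for CXCL3, CCL20 or CXCL2. Those that fell included the T cell attractants CCL5 and CCL22. CCL22 was at 3.77, 4.38 and 4.39 CPM and then 0.204, 0.144 and 0.258 CPM (-4.297 ± 0.31, edgeR adjusted p = 2.91e-11), and CCL5 fell by 3.82. CCL26 fell by 1.88 and CXCL16 by 0.58. CXCL11 fell by 1.43, a call lost under some settings. CXCL10 had too few counts to be tested, 31 in R4KO_2_Vehicle and 13 with BX-795.

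Of 16 tested cytokines, 9 fell and 1 rose against R4KO_2_Vehicle, whereas 4 were higher and 4 lower against R4KO_1_Vehicle. IL15, which sustains natural killer cells, was lower against R4KO_2_Vehicle (-1.44) and against R4KO_1_Vehicle (-1.38), as was the interleukin 1 antagonist IL1RN (-2.795 and -1.97). IL24 had 49 counts over the R4KO_2_Vehicle libraries and 4 with BX-795. IL1B was at 43.01, 43.7 and 39.5 CPM in R4KO_2_Vehicle and 22.5, 26.2 and 24.5 CPM with BX-795 (-0.79 ± 0.15, edgeR adjusted p = 5.7e-05), with no overlap. It was at 16.3, 23.6 and 36.8 CPM in R4KO_1_Vehicle and was not called against that group (-0.07). AREG, a ligand of EGFR, fell by 1.24 against R4KO_2_Vehicle and was not called against R4KO_1_Vehicle (-0.23). IL6 and IL32 were not called, at -0.17 and 0.32, although some settings called IL32, and TGFA, also an EGFR ligand, rose by 0.39.

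**Figure D4:**
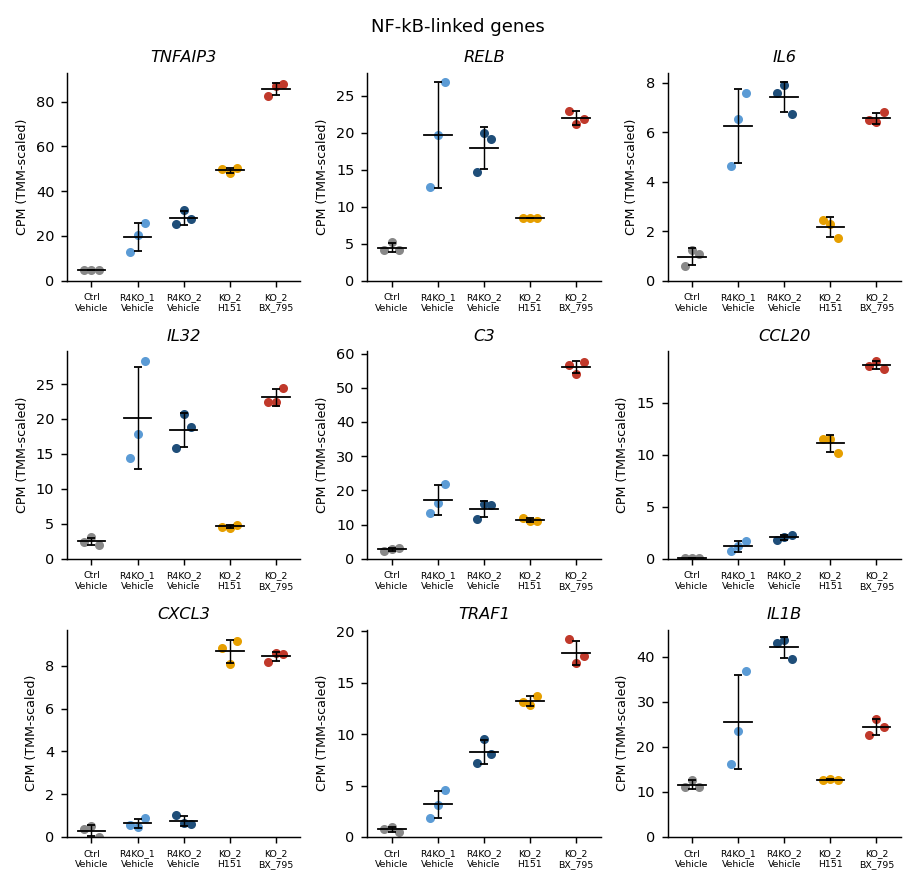
Levels of 9 NF-kB, chemokine and cytokine genes in CPM on the vertical axis, by group on the horizontal axis, one panel per gene. Points are libraries, bars are means and error bars are SD over 3 libraries, and TNFAIP3, CCL20, TRAF1 and C3 have their highest mean with BX-795, while IL6, IL32 and RELB are lower with H-151 than with BX-795.

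Genes that rise when AKT is inactive and FOXO factors are nuclear fell. PDPK1 activates AKT, which keeps FOXO out of the nucleus, and this list was included because PDPK1 is an early named target of the compound. Of 18 tested members, 16 fell and 1 rose, at a median log2 change of -1.13, and against R4KO_1_Vehicle 13 were lower and 1 higher, with a median of -0.95. TXNIP, which restrains glucose uptake, was at 371.8, 353.4 and 360.7 CPM in R4KO_2_Vehicle and 134.4, 136.2 and 133.0 CPM with BX-795 (-1.43 ± 0.08, edgeR adjusted p = 1.69e-13). FBXO32 (atrogin-1, a ubiquitin ligase) was at 8.697, 9.89 and 11.2 CPM and then 1.43, 1.49 and 1.66 CPM (-2.69 ± 0.17, edgeR adjusted p = 3.46e-12). Neither gene overlapped between groups. DEPP1 fell by 2.49, the kinase of pyruvate dehydrogenase PDK4 by 2.27, KLHL24 by 1.801 and CCNG2 by 1.55 on the log2 scale. The receptor ERBB3 rose by 0.82 but was not called against R4KO_1_Vehicle (0.24) or without R4KO_2_Vehicle replicate 2. CDKN1B was not called (-0.02).

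Most cholesterol synthesis genes fell. Of 25 tested genes, 23 fell and 2 rose. The fall was at least 2-fold for 21, and the list's median was -1.56 on the log2 scale. Against R4KO_1_Vehicle 24 were lower and 1 higher, with a median of -1.73. HMGCS1, which makes the precursor of mevalonate, was at 444.8, 594.5 and 586.6 CPM in R4KO_2_Vehicle and 77.4, 82.9 and 74.5 CPM with BX-795 (-2.79 ± 0.14, edgeR adjusted p = 6.9e-14). MSMO1, a demethylating oxidase of the later steps, was at 227.3, 289.2 and 307.4 CPM and then 30.1, 29.3 and 30.8 CPM (-3.19 ± 0.14, edgeR adjusted p = 5.18e-15). Every vehicle library was above every BX-795 library in both genes. The enzymes TM7SF2 and FDFT1 fell by 3.302 and 2.46 on the log2 scale, and INSIG1, which retains the sterol sensor, by 2.95. The exceptions were PMVK, which rose by 0.76, and ACAT2. ACAT2 (acetoacetyl-CoA thiolase) was at 0.05303, 0.214 and 0.214 CPM in R4KO_2_Vehicle and 3.67, 3.85 and 3.53 CPM with BX-795, but at 6.47, 6.23 and 6.27 CPM in R4KO_1_Vehicle, so it was higher against the former (4.47) and lower against the latter (-0.78).

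Fatty acid synthesis moved the same way, with 9 of 11 tested genes lower and none higher, at a median of -0.71 on the log2 scale. Against R4KO_1_Vehicle 10 were lower and 1 higher. ACSS2, which activates acetate, fell by 2.36, the desaturase SCD by 1.423 and fatty acid synthase FASN by 0.71 on the log2 scale. SCD was also among the 5 most abundant genes called lower, at 1869, 2113 and 2150 CPM in R4KO_2_Vehicle and 758.7, 773.1 and 754.6 CPM with BX-795 (edgeR adjusted p = 2.03e-15).

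Genes for making ribosomes rose as a block. All 42 tested ribosome biogenesis genes rose, at a median of 0.78 on the log2 scale, and all 42 were higher against R4KO_1_Vehicle too, with a median of 0.80. NPM1, the nucleolar phosphoprotein, was at 1041, 1031 and 1052 CPM in R4KO_2_Vehicle and 2957, 2962 and 2970 CPM with BX-795 (1.51 ± 0.03, edgeR adjusted p = 2.32e-20). PES1, which processes the large subunit RNA, was at 84.1, 93.03 and 84.7 CPM and then 218.7, 228.9 and 233.9 CPM (1.38 ± 0.05, edgeR adjusted p = 6.66e-16). NOP56, a core protein of box C/D particles, was at 255.8, 248.9 and 256.1 CPM and then 502.8, 511.1 and 507.1 CPM (0.999 ± 0.04, edgeR adjusted p = 2.1e-16). The groups did not overlap in these genes. Of 42 tested ribosomal protein genes, 41 rose and none fell, with a median of 0.65, and the exception RPS4X overlapped between groups (0.06). Many ribosomal protein genes have processed pseudogenes that can take some of their reads.

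All 16 tested host genes of small nucleolar RNAs rose, at a median log2 change of 1.48 against R4KO_2_Vehicle and 1.23 against R4KO_1_Vehicle. Their introns carry the guide RNAs that modify ribosomal RNA. SNHG4 averaged 3.86 CPM in R4KO_2_Vehicle and 29.8 CPM with BX-795, with no overlap (2.95 ± 0.09, edgeR adjusted p = 4.38e-17), though it overlaps MATR3 and SIL1, whose reads it may hold. SNHG3 rose by 2.23, GAS5 by 1.65 and SNHG32 by 1.423 on the log2 scale.

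Mitotic genes rose and replication genes did not move in 1 direction. Of 32 tested mitosis genes, 27 rose and 2 fell, at a median log2 change of 0.45, and against R4KO_1_Vehicle 26 were higher and 2 lower. CDC20, the activator of the anaphase-promoting complex, was at 155.2, 152.6 and 148.4 CPM in R4KO_2_Vehicle and 438.8, 440.5 and 446.1 CPM with BX-795 (1.54 ± 0.04, edgeR adjusted p = 4.23e-18). AURKA, a spindle pole kinase, was at 106.5, 101.2 and 103.2 CPM and then 297.5, 295.9 and 297.5 CPM (1.52 ± 0.05, edgeR adjusted p = 3.17e-16). BX-795 libraries were higher than all vehicle libraries in both. CCNB1 rose by 1.41 and UBE2C by 1.17 on the log2 scale, while SPC24 fell by 0.57 and CDK1 by 0.11, the CDK1 call being lost under some settings. Of 30 replication genes, 12 rose and 10 fell, shares near those of all genes, with a median of 0.00.

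PES1 and CDC20 are shown by their promoters because they rose, in lists that moved almost as a whole, and hold the element marked below. The element was thus part of the choice. The windows are RefSeq (GRCh38.p14) as above. In PES1 (chr22:30591861-30592160, minus strand) capitals mark the E-box CACGTG, a sequence that MYC can bind, and in CDC20 (chr1:43358731-43359030, plus strand) they mark the CHR element TTTGAA, known from cell cycle genes, with 1 match on each strand.
PES1: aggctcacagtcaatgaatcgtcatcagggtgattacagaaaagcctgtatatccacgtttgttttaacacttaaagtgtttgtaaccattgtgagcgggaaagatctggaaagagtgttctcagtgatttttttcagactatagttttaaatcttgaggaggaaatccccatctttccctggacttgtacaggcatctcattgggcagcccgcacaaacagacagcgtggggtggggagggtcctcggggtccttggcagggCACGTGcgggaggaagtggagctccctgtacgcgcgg
CDC20: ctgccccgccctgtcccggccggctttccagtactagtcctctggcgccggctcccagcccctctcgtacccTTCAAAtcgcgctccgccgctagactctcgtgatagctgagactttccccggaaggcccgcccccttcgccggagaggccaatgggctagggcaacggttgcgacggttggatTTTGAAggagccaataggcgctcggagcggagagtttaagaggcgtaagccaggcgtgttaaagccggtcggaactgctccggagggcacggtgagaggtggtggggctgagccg
Of 35 ribosome biogenesis genes with a promoter in the table, 12 (34.3%) held the E-box, against 7.43% of all promoters and 9.94% of those of tested genes. Of 26 mitosis genes with one, 17 (65.4%) held the CHR element, against 15.4% of all promoters and 9.88% of those of tested genes. MYC itself was at 261.3, 268.3 and 270.1 CPM in R4KO_2_Vehicle and 434.7, 451.9 and 470.3 CPM with BX-795, with no overlap (0.76 ± 0.05, edgeR adjusted p = 9.9e-12).

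Stress programmes differed from each other. Heat shock chaperones split, with 9 of 22 higher and 13 lower, and against R4KO_1_Vehicle 9 higher and 7 lower. HSPA6, a strictly inducible HSP70, was at 61.04, 55.4 and 38.1 CPM in R4KO_2_Vehicle and 1.06, 1.49 and 1.803 CPM with BX-795 (-5.13 ± 0.19, edgeR adjusted p = 3.98e-16). This was the deepest fall of all genes that met the naming limits. It averaged 4.43 CPM in R4KO_1_Vehicle and 1.38 CPM in Ctrl_Vehicle, so the difference was -1.59 against R4KO_1_Vehicle. The co-chaperone DNAJB1 fell by 1.38 against R4KO_2_Vehicle and was not called against R4KO_1_Vehicle (-0.08). HSP90AB1, the constitutive HSP90, rose by 0.89 and its co-chaperone STIP1 by 0.62 on the log2 scale. The HSPA6 promoter (RefSeq, GRCh38.p14, chr1:161524290-161524589, plus strand) is shown because it holds the heat shock element (GAA, any 2 bases, TTC, any 2 bases, GAA), in capitals, which was found in 0.487% of all promoters and in 4 of 20 (20.0%) list members with one.
HSPA6: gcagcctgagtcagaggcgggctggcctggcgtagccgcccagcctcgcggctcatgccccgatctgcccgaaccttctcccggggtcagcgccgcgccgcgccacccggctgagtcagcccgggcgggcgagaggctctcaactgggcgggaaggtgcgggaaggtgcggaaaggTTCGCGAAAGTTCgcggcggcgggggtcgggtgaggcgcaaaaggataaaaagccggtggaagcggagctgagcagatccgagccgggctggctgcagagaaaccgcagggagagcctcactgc

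The ATF4 stress response, which follows amino acid shortage or endoplasmic reticulum stress, moved in both directions. Of 29 members, 14 (48.3%) were higher and 12 (41.4%) lower, against 36.4% and 37.1% of all tested genes. GDF15, a secreted stress cytokine, was at 120.2, 149.2 and 125.8 CPM in R4KO_2_Vehicle and 16.1, 16.4 and 17.7 CPM with BX-795 (-2.98 ± 0.18, edgeR adjusted p = 2.63e-12). DDIT3 (CHOP, a pro-apoptotic factor) was at 71.2, 82.4 and 86.5 CPM and then 17.5, 17.95 and 17.96 CPM (-2.17 ± 0.16, edgeR adjusted p = 3.03e-11). MTHFD2, an enzyme of mitochondrial folate metabolism, went the other way, from 106.6, 121.1 and 108.6 CPM to 235.5, 228.6 and 229.2 CPM (1.04 ± 0.05, edgeR adjusted p = 4.66e-14). INHBE and NUPR1 fell by 2.07 and 2.04 on the log2 scale, whereas ATF4 itself rose by 0.49, ATF5 by 1.302 and STC2 by 0.95. CHAC1 and ATF3 fell against R4KO_2_Vehicle (-0.58 and -0.59) and were not lower against R4KO_1_Vehicle (0.21 and 0.13). Of 20 endoplasmic reticulum chaperone and unfolded protein response genes, 11 rose and 3 fell, SDF2L1 by 1.17 and the sensor ERN1 (IRE1) by 0.98.

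Of 27 tested NRF2 targets, 15 fell and 6 rose, at a median log2 change of -0.21, and against R4KO_1_Vehicle 20 were lower and 4 higher. The aldo-keto reductase AKR1B10 fell by 1.99, and SRXN1, which repairs oxidised peroxiredoxins, rose by 1.79. Of 24 p53 targets, 16 fell and 7 rose, and against R4KO_1_Vehicle 12 were lower and 4 higher. TP53INP1 fell by 2.56, the cell cycle inhibitor CDKN1A by 1.418 and the BH3-only protein PMAIP1 by 1.28 on the log2 scale. The exonuclease AEN rose by 0.73.

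Immediate early factors showed no common direction against R4KO_2_Vehicle, with 12 of 29 higher and 12 lower, shares near those of all genes. Against R4KO_1_Vehicle 13 were higher and 7 lower. NR4A1, an orphan nuclear receptor induced within minutes of a stimulus, was at 26.99, 33.6 and 45.4 CPM in R4KO_2_Vehicle and 159.8, 155.5 and 159.5 CPM with BX-795 (2.16 ± 0.14, edgeR adjusted p = 7.2e-12). EGR1 and FOS rose by 0.84 and 0.84 on the log2 scale, and JUND and KLF4 fell by 1.58 and 1.39. Against R4KO_1_Vehicle 7 of 22 MAPK feedback genes were higher and 6 lower, while against R4KO_2_Vehicle 4 rose and 10 fell. DUSP2, a phosphatase of ERK, was at 20.1, 23.8 and 26.1 CPM and then 96.4, 90.7 and 98.8 CPM (2.03 ± 0.07, edgeR adjusted p = 4.29e-16). EPHA4 fell by 2.23 and DUSP10, which acts on JNK and p38, by 1.12. DUSP6 fell against R4KO_2_Vehicle (-0.39) and was not called against R4KO_1_Vehicle (0.28, edgeR adjusted p = 0.117).

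Targets of YAP and TEAD, which respond to cell density and stiffness, were mostly higher. Of 20 tested, 15 rose and 4 fell, at a median log2 change of 0.70, and against R4KO_1_Vehicle 16 were higher and 3 lower. NT5E (CD73, which makes adenosine outside the cell) was at 20.95, 19.8 and 20.7 CPM in R4KO_2_Vehicle and 142.3, 134.6 and 134.3 CPM with BX-795 (2.74 ± 0.09, edgeR adjusted p = 4.99e-17). F3 (tissue factor) was at 102.3, 122.3 and 97.1 CPM and then 368.9, 377.8 and 367.8 CPM (1.79 ± 0.1, edgeR adjusted p = 4.68e-13). Neither gene overlapped. FJX1 rose by 1.46 and the receptor kinase AXL by 1.16 on the log2 scale. ANKRD1, often the first marker used for this pathway, was at 16.6, 18.6 and 12.6 CPM and then 4.48, 3.99 and 4.38 CPM (-1.89 ± 0.14). It was at 1.67, 3.06 and 3.22 CPM in R4KO_1_Vehicle, below the BX-795 libraries (0.699, edgeR adjusted p = 0.00291). YAP1 and its partner WWTR1 fell by 0.14 and 0.49.

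Squamous differentiation genes changed in both directions, 9 of 22 (40.9%) higher and 12 (54.5%) lower, at a median log2 change of -0.82. The shares of all tested genes were 36.4% and 37.1%. KRT81, a hair keratin, was at 0.955, 0.962 and 0.696 CPM in R4KO_2_Vehicle and 23.7, 25.7 and 25.5 CPM with BX-795 (4.83 ± 0.14, edgeR adjusted p = 9.31e-18), and it overlaps its near-copy KRT86. The simple keratin KRT7 rose by 1.35 on the log2 scale, and the mucosal keratin KRT13 and the desmosomal cadherin DSG3 fell by 1.54 and 2.03. Against R4KO_1_Vehicle 18 of 35 matrix genes were higher and 9 lower, while against R4KO_2_Vehicle they split, with 14 higher and 16 lower. The split was 40.0% and 45.7% of the list, against 36.4% and 37.1% of all tested genes. The collagenase MMP13 was at 102.7, 113.2 and 116.8 CPM and then 14.3, 15.5 and 13.95 CPM (-2.93 ± 0.08, edgeR adjusted p = 4.8e-18), and MMP10 fell by 2.84. The gelatinase MMP9 was at 0.424, 0.321 and 0.107 CPM and then 4.65, 4.14 and 5.04 CPM (3.996 ± 0.27, edgeR adjusted p = 9.5e-12).

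Of 30 glycolysis and hypoxia genes, 18 rose and 5 fell, at a median log2 change of 0.35. LDHA, lactate dehydrogenase, was at 1499, 1457 and 1516 CPM in R4KO_2_Vehicle and 3140, 3165 and 3190 CPM with BX-795, with no overlap (1.09 ± 0.03, edgeR adjusted p = 9.33e-18), and at 3280, 3248 and 3446 CPM in Ctrl_Vehicle. The lactate exporter SLC16A3 rose by 1.17, whereas the hypoxia-induced VEGFA and PFKFB4 fell by 0.698 and 0.88. Of 28 autophagy and lysosome genes, 7 rose and 18 fell, with a median of -0.22. The cargo receptor NBR1 fell by 0.69 and MAP1LC3B by 0.703.

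Among 11 tested immune checkpoint ligands, 2 rose and 7 fell, at a median log2 change of -0.94. CD47, which signals to macrophages not to engulf a cell, was at 159.4, 165.3 and 166.8 CPM in R4KO_2_Vehicle and 86.99, 88.7 and 80.2 CPM with BX-795 (-0.94 ± 0.05, edgeR adjusted p = 6.92e-14). CEACAM1 fell by 3.902, CD86 by 2.81 and LGALS9 by 2.33 on the log2 scale. CD274 (PD-L1) fell by 0.77 against R4KO_2_Vehicle and was not called against R4KO_1_Vehicle (-0.23). IDO1, which degrades tryptophan, had 49 counts over the R4KO_2_Vehicle libraries and 0 over the BX-795 libraries, at least 21.1-fold lower with 3 counts over the group as the floor. The poliovirus receptor PVR and NECTIN2, ligands of TIGIT, rose by 0.19 and 0.32, and some settings lost the PVR call.

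Outside the lists, the deepest falls among well-measured genes included noncoding RNAs. LINC01843 was at 51.2, 59.5 and 54.2 CPM in R4KO_2_Vehicle and 1.67, 1.83 and 1.95 CPM with BX-795 (-4.91 ± 0.13, edgeR adjusted p = 3.97e-18). LINC03040 was at 150.4, 200.2 and 193.0 CPM and then 8.07, 7.27 and 6.96 CPM (-4.61 ± 0.17, edgeR adjusted p = 5.58e-16). Neither overlapped between groups. BLNK, an adaptor of the B cell receptor, fell by 4.45 and PRR15 by 4.12 on the log2 scale. The 10 largest rises were led by PXDN (6.41) and SLC12A3 (5.78), both already high in R4KO_1_Vehicle. They also held DHRS2 (3.37), the microfibril protein MFAP5 (3.36), EID3 (2.87, inside TXNRD1) and PSTPIP2 (2.86), which was not higher against R4KO_1_Vehicle (-0.36). Of the 5 most abundant genes called higher, EEF1A1, the elongation factor that brings transfer RNA to the ribosome, changed by 0.77, ACTB by 0.48, GAPDH by 0.53, ENO1 by 0.47 and HSP90AA1 by 0.15. Among the most abundant genes called lower, besides SCD, were PPIA (-0.23), TXNRD1 (-0.52) and PSAP (-0.81).

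Some genes kept their direction and call against R4KO_1_Vehicle at a fold that differed by more than 1.5 times, and the difference between the comparators was not tested. The log2 fold change against R4KO_1_Vehicle was farther from 0 for RSAD2 (-5.59), CCL20 (3.95), DHRS2 (4.21), TRAF1 (2.498) and F3 (3.04). Among genes that fell it was nearer to 0 for BLNK (-3.81), CCL22 (-3.48), CCL26 (-0.74), FBXO32 (-1.51), GDF15 (-2.35), INHBE (-0.97), DSG3 (-1.422), CD86 (-2.11), COL3A1 (-3.48) and LUM (-2.94). Among genes that rose it was nearer to 0 for PXDN (0.62), SLC12A3 (0.89), MFAP5 (2.21), SRXN1 (1.15), NR4A1 (1.26) and DUSP2 (1.36). IDO1 had 26 counts over the R4KO_1_Vehicle libraries.

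BX-795 and H-151 act on neighbouring steps of one pathway, and the direct comparison of their libraries showed where they differed. It shares the BX-795 libraries with the comparisons above, both groups carry the KO_2 label, and neither dose nor time is given for either compound. With BX-795, 814 genes (5.67%) were higher and 573 (3.99%) lower than with H-151, by edgeR's quasi-likelihood test at the same threshold. Of these, 65 (0.453%) were higher and 2 (0.0139%) lower by at least 2-fold. Leaving out any 1 of the 6 libraries left 492 to 621 genes higher and 299 to 394 lower. NF-kB genes were higher with BX-795 for 16 of 23 members, or 10 without H-151 replicate 3. They were lower for 1, ICAM1, whose call was lost when any 1 of the 6 libraries was left out. The list had a median log2 difference of 0.46 against 0.00 for all genes. Of 16 cytokines, 7 were higher and none lower, with a median of 0.45.

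TNFAIP3 was at 49.7, 47.95 and 50.3 CPM with H-151, below the BX-795 libraries (0.799 ± 0.103 for BX-795 over H-151, edgeR adjusted p = 2.16e-05). RELB, the partner of p52, was at 8.497, 8.43 and 8.45 CPM with H-151, 22.95, 21.1 and 21.8 CPM with BX-795 and 14.7, 20.0 and 19.1 CPM in R4KO_2_Vehicle (1.38 ± 0.17, edgeR adjusted p = 9.58e-06). H-151 thus stood below the vehicle-treated knockout, and BX-795 did not. NFKB2 and NFKBIA differed by 0.88 and 0.697 on the log2 scale. IL6 was at 2.46, 2.299 and 1.71 CPM with H-151, 6.48, 6.399 and 6.81 CPM with BX-795 and 7.58, 7.91 and 6.75 CPM in R4KO_2_Vehicle (1.62 ± 0.17, edgeR adjusted p = 1.54e-06). IL32 was at 4.57, 4.46 and 4.85 CPM with H-151 and 22.5, 22.4 and 24.4 CPM with BX-795 (2.32 ± 0.18, edgeR adjusted p = 1.45e-08). The 2 inhibitor groups did not overlap in any of these genes.

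C3, the central complement component, was at 11.99, 11.1 and 11.01 CPM with H-151, 56.6, 54.03 and 57.5 CPM with BX-795 and 11.7, 16.04 and 15.8 CPM in R4KO_2_Vehicle (2.302 ± 0.11, edgeR adjusted p = 1.72e-11). CTSS, a protease of antigen processing, was at 2.24, 2.64 and 2.404 CPM with H-151 and 11.2, 11.4 and 10.97 CPM with BX-795 (2.203 ± 0.12, edgeR adjusted p = 8.63e-11). TNFRSF9 (4-1BB) was at 3.88, 4.599 and 4.03 CPM and 12.4, 12.2 and 12.8 CPM (1.59 ± 0.19, edgeR adjusted p = 6.22e-06). These 3, with IL32 and IL6, were the 5 largest excesses of BX-795 over H-151 among well-measured genes. IKBKE was also higher with BX-795 (0.59, edgeR adjusted p = 1.67e-05), as were CCL20 (0.75), CXCL2 (0.63), IL1B (0.94) and MMP9 (2.49).

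Differences between the inhibitors in interferon genes were small in size. Of 59 effectors, 13 (22%) were higher with BX-795 and 3 (5.08%) lower than with H-151, none of them by 2-fold, with a median log2 difference of 0.08. The 3 became 1 without BX-795 replicate 1 or H-151 replicate 1. OASL was lower with BX-795, at 7.75, 6.74 and 7.803 CPM against 13.5, 13.03 and 13.9 CPM (-0.85 ± 0.19, edgeR adjusted p = 0.00495), a call lost with a robust fit of the dispersion. Of 21 MHC class I genes, 7 (33.3%) were higher and 1 lower. Both shares of higher genes exceed the 5.67% of all genes. Among the higher ones, PSMB9 differed by 0.79 and PSMB8 by 0.48. Of 42 ribosome biogenesis genes 1 was higher and none lower, and of 42 ribosomal protein genes none was called. Of 25 cholesterol synthesis genes 1 was lower. A gene that was not called is not shown to be equal under both compounds.

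NRF2 targets were lower with BX-795 for 17 of 27 members and higher for 1, with a median log2 difference of -0.26. Of 30 glycolysis and hypoxia genes 11 were lower, or 7 without BX-795 replicate 1 or H-151 replicate 1, and of 11 fatty acid synthesis genes 5 were lower. TXNIP was at 182.6, 183.9 and 187.1 CPM with H-151, above the BX-795 libraries (-0.46, edgeR adjusted p = 0.000361). Of 35 matrix genes 13 were higher, or 8 without BX-795 replicate 3 or H-151 replicate 2 or 3, with PLAU (urokinase) at 0.86. SERPINB13, a squamous protease inhibitor, was at 5.65, 6.13 and 6.13 CPM with H-151, 3.06, 3.61 and 3.35 CPM with BX-795 and 43.6, 50.5 and 46.96 CPM in R4KO_2_Vehicle (-0.84 ± 0.12, edgeR adjusted p = 7.68e-05). DHRS2, SLC12A3 and CYP1A1 completed the 5 largest deficits with OASL among well-measured genes (average log2 CPM of at least 2), at -0.84, -0.75 and -0.75, and SLC12A3 lost its call with DESeq2. The 2 genes lower by at least 2-fold were below that level, CA9 at 1.62 and 0.636 CPM and PPP1R3B-DT at 0.704 and 0.332 CPM with H-151 and BX-795, and they are named after their values were seen.

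**Figure D5:**
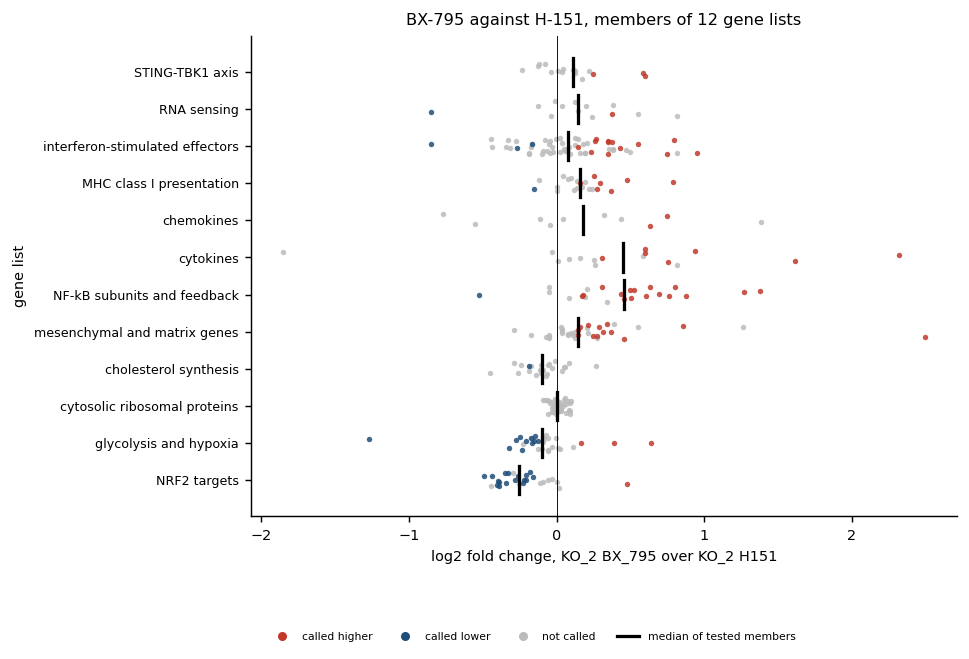
Log2 difference of BX-795 over H-151 on the horizontal axis for each tested member of 12 gene lists, one row per list. Each point is a gene, red if higher with BX-795, blue if lower and grey if not called at an adjusted p of 0.05, and the black bar is the median, which is 0.46 for NF-kB genes, 0.45 for cytokines and -0.26 for NRF2 targets.

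Against the control line with vehicle, 3976 genes (27.7%) were higher in BX-795 libraries and 4020 (28.0%) lower, by edgeR's quasi-likelihood test. This comparison shares its BX-795 libraries with the others, and knockout and compound cannot be told apart in it. Interferon-stimulated effectors were below the control line for 44 of 59 members and above it for 4 (2 without BX-795 replicate 1 or 3 or Ctrl_Vehicle replicate 2), at a median log2 change of -0.44. All 11 RNA sensing genes that were called of 13 tested were lower. MHC class I genes were lower for 16 of 21 (median -0.57) and cholesterol synthesis genes for 23 of 25 (median -0.85). NF-kB genes stood above the control line for 16 of 23 members and below it for 1 (median 0.65). Cytokines were above it for 11 of 16 and below it for 5, 2 of them by at least 2-fold (median 0.92). ATF4 stress response genes were higher for 21 of 29 and lower for none, while GDF15 averaged 16.7 CPM with BX-795 and 5.69 CPM in Ctrl_Vehicle. Ribosome biogenesis genes gave 14 higher and 10 lower of 42 and a median of 0.06. Ribosomal protein genes gave 14 higher and 12 lower with a median of 0.03. For host genes of small nucleolar RNAs, 6 of 16 were higher and 4 lower (median 0.06). Mitosis genes gave 5 higher and 13 lower of 32 with a median of -0.01. The AKT and FOXO list gave 6 higher and 7 lower of 18 with a median of 0.03.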

How the data were processed

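Poly(A)-selected RNA from SCC1 cells was sequenced, per the labels' protocols, although the molecule field of the labels reads genomic DNA. Per the submitters' processing notes, HISAT2 2.2.1 and featureCounts 2.0.1 were used with FastQC 0.11.9 and Trim Galore 0.6.4, DESeq2 1.42.0 is listed, and hg38 is the human build. Neither the strand setting nor the annotation is given in the sources used here. The authors deposited raw read counts per gene and library. Rows sharing an Ensembl identifier held equal counts and were kept once, which gave 35135 identifiers. The coordinates of REXO4 are those of GENCODE release 29. Library totals (17470214 to 27937636 counts) set the precision of low genes.

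edgeR 4.0.16 (R 4.3.3, limma 3.58.1) was fitted to 15 libraries in 5 groups with TMM factors, a low-count filter (filterByExpr, minimum count 10) that kept 14348 genes, and quasi-likelihood tests with Benjamini-Hochberg adjustment at 0.05. SE is the log2 fold change divided by the square root of F. The script was tested on simulated data. Members and gene lists were chosen with earlier results of these data known.

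Genes were named by rule: every member of the STING-TBK1, RNA sensing, interferon ligand and interferon receptor lists, the 10 largest changes each way (average log2 CPM of at least 2, no overlap), the 4 lowest p-values of each other list and the members that moved against its majority, the 5 most abundant called genes each way, the 5 largest differences from H-151 each way, and transcripts marking 1 knockout (mean of at least 2 CPM in it and below 0.5 CPM in every library of the other and of Ctrl_Vehicle, 3 at most each). These genes were named after their values were seen: IFIT2, IFIT3, DDX60, ISG15, IFITM3, LGALS3BP, TRIM14, NLRC5, PSMB8, PSMB9, ERAP1, ERAP2, CCL5, CCL26, CXCL10, CXCL11, CXCL16, IL1B, RELB, NFKB2, NFKBIA, NFKBIE, TNIP1, TRAF1, PDK4, DEPP1, CDKN1B, HMGCS1, INSIG1, TM7SF2, MSMO1, FASN, PES1, RPS4X, DNAJB1, AKR1B10, PMAIP1, F3, FJX1, EGR1, MYC, KRT13, CD274, IDO1, STC2, ATF4, PLAU, DUSP6, SLC16A3, ERN1, MAPK15, MAP3K9 and PDPK1. Some genes that these rules name are not reported here. The alternatives tried were other scaling factors (RLE, upper quartile), other filters on low counts, DESeq2, only the 6 libraries compared, a robust fit, glmTreat, thinned counts, a replicate block and leaving out each library; R4KO_1_Vehicle as comparator and the second rule for marks were added after seeing the data.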

Additional observations from a re-analysis of the deposited data

How the results depend on the processing

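No call reversed under the settings planned at the outset. Against R4KO_1_Vehicle, added after the data were seen, these log2 fold changes had the other sign: TICAM1 0.42, PSTPIP2 -0.36, PDIA3 -0.027, ICAM1 0.39, ACAT2 -0.78, ATF3 0.13, CHAC1 0.21, FTL -0.36, FOSL1 0.20, IER5 0.10, ANKRD1 0.70, SPARC -0.30, DSP -0.10, PYCARD -0.45, IL11 0.13, DUSP6 0.28 and LAMB3 0.33. Named genes that changed sign without a call against either knockout are left out of this list. Against that group 4849 genes were higher and 5049 lower. Of 352 named genes tested, 297 kept their call, counting genes called in neither comparison whatever their sign. Of the list counts of higher or lower members, 12 moved by more than 1.5 times, or to or from 0, and 56 did not. Testing against a 2-fold change (glmTreat) left 412 higher and 755 lower against R4KO_2_Vehicle, 198 and 115 against Ctrl_Vehicle, and 5 and 0 against H-151. There, 38 genes in either direction had an unadjusted p under 0.05, and DESeq2, with no fold minimum, called 661 higher and 518 lower. Fitting only the 6 libraries raised the H-151 counts to 1405 and 1248. Leaving out a library gave 4962 to 5060 higher and 5043 to 5179 lower against R4KO_2_Vehicle, 492 to 621 and 299 to 394 against H-151, and 3559 to 3766 and 3626 to 3857 against Ctrl_Vehicle. The cause of these differences was not tested. With the replicate number as a block, the counts were 5187 and 5297 against R4KO_2_Vehicle, 781 and 526 against H-151, and 3931 and 3963 against Ctrl_Vehicle. Same-numbered libraries did not deviate together (correlations -0.0194, -0.00855 and 0.00218), and not every library correlated best with its own number. These values cannot show whether the libraries were paired in the experiment, and the labels do not say. With counts thinned to the lowest library, 5067 genes were higher and 5213 lower against R4KO_2_Vehicle. Most interferon ligands had too few counts to test, and whether this came from depth or from absent transcripts was not tested.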
